A study of Homo sapiens with 12 samples.

Results

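The 200 most abundant antisense RNAs in inputs of a colorectal cancer cell line are described here. They were chosen by the levels reported here, as the genes annotated antisense_RNA with the highest mean log2(FPKM + 1) over 6 input libraries, out of 5517 antisense RNAs and 58302 genes listed. FPKM is fragments scaled by gene length and by a factor per library, so it is a level per length. In these values that factor was not the plain fragment count of the library, as the processing section describes. Of the 5517 antisense RNAs, 1708 were above 0 in at least 1 input. The libraries came from DLD1, an epithelial line grown from a human colorectal tumour, at passage 5. The input of the knockdown group carried shNAT10, a short hairpin RNA against NAT10 (3 libraries), and the input of the control group carried shNC, its control hairpin (3 libraries). NAT10 is the acetyltransferase that writes N4-acetylcytidine (ac4C) on RNA. The series also held 6 immunoprecipitated libraries, for which 100 µg of total RNA was broken to 100 to 200 nt and pulled down with an ac4C antibody. Those libraries had no column in the gene table and enter only through the authors' deposited list of differential peaks. The labels do not say whether replicates were separate cultures or clones, so the spread between libraries, on which p-values rest, may be technical. The test used below draws that spread mostly from genes of like level, and little from each gene alone.

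Antisense RNAs are transcripts read from the strand opposite another gene, most often a coding gene. Some start close to the promoter of their partner and run away from it, some run across the partner's start or body, and many stay near their site of synthesis. Members of the class are known to recruit chromatin factors, to pair with the sense mRNA or to interfere with its transcription, while for most no role is known. Their measurement rests on telling the strands apart. The sources used here do not give the strand setting of the counting, so fragments of an antisense RNA and of the gene opposite cannot be told apart in these values, nor can those of overlapping genes.

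The start regions below are shown because they belong to pairs whose levels or peaks are described further on. They are RefSeq windows of GRCh38.p14 from 250 bases before to 50 bases after the annotated start, written 5′ to 3′ on the strand of the gene. In the first pair, capitals mark the 288 bases that the windows of DDIT4-AS1 (chr10:72273662-72273961, minus strand) and DDIT4 (chr10:72273674-72273973, plus strand) share, so that each capital run is the reverse complement of the other. In the window of SMARCA5 (chr4:143513452-143513751, plus strand) capitals mark the 15 bases that overlap a deposited peak of SMARCA5-AS1.
DDIT4-AS1: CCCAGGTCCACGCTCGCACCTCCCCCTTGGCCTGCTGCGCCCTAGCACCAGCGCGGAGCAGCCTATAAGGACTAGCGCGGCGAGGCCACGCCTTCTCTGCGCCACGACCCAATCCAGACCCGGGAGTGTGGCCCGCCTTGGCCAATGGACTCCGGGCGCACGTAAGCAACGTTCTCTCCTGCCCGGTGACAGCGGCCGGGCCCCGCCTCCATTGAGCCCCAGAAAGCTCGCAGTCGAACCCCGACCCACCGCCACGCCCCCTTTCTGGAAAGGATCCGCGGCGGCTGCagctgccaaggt
DDIT4: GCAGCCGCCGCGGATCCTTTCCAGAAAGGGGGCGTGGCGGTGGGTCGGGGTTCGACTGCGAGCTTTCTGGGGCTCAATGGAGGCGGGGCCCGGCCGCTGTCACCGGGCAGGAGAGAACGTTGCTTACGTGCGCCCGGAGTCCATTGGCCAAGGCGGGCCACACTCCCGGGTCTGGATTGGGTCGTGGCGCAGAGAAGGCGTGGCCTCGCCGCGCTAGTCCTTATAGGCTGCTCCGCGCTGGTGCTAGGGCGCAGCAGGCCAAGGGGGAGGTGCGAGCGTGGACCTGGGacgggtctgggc
SMARCA5: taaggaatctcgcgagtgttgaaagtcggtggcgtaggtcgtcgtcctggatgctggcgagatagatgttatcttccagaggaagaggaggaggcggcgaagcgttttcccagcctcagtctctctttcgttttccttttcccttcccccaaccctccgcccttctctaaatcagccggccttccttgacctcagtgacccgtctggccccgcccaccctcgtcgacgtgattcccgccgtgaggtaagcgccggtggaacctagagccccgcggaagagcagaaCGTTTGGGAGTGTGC
The letters CCAAT, a box bound by the factor NF-Y, were found on either strand in 9 of the 19 members with a RefSeq start window (47.4%), against 34.6% of all 35116 windows of the same length. GGGCGG, the core of the GC box, was found on either strand in 6 of 19 (31.6%), against 45% of all windows. The DDIT4-AS1 and DDIT4 windows each held 2 CCAAT matches, inside the shared bases, and the SMARCA5 window held 2 GGGCGG matches. Median GC content was 59.7% over the 19 windows and 58.7% over all. A match describes these letters only and is not a binding site.

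NAT10, the targeted gene, was listed at 0, 28.1 and 31.4 FPKM in the libraries labelled shNAT10, against 1.24, 3.95 and 2.89 FPKM in shNC. Replicates 2 and 3 labelled shNAT10 thus lay above every shNC library, against their label, and the main results that compare the hairpins are also given without them. Fragments on genes, recovered from the FPKM values, numbered 1303819, 1233204 and 1224104 in the libraries labelled shNAT10 and 2758187, 2636811 and 2705391 in shNC, so depth moved with the hairpin. All 10 epithelial markers were above 0, with sums of 8108 to 8584 FPKM in the libraries labelled shNAT10 and 5069 to 5404 in shNC. Of 8 fibroblast and muscle markers all were above 0 somewhere, with sums of 9.62 to 76.9 FPKM in the libraries labelled shNAT10 and 0 to 3.81 in shNC. Leukocyte markers were above 0 for 2 of 6, endothelial and erythroid markers for 1 of 5 and neural markers for 2 of 4, none summing to over 5.97 FPKM in a library. Their part in the differences below was not tested. Fewer cells and less RNA per cell cannot be told apart in bulk libraries.

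The 200 antisense RNAs held a large part of all FPKM listed. They summed to 138403, 140823 and 156695 FPKM in the libraries labelled shNAT10 and to 115311, 120392 and 117402 FPKM in shNC. This was 23.9%, 25.3% and 22.0% of all FPKM listed in the libraries labelled shNAT10 and 22.3%, 22.6% and 25% in shNC, so the shares of the groups overlap. All antisense RNAs together took 28.6% to 31.6% in the libraries labelled shNAT10 and 30.0% to 32.9% in shNC. All protein-coding genes took 32.0% to 37.2% in the libraries labelled shNAT10 and 34.8% to 39.2% in shNC. The 10 most abundant held 31.1% to 34.9% of the FPKM of the 200 in each library. The median member stood at 291, 288 and 326 FPKM in the libraries labelled shNAT10 and at 261, 275 and 257 FPKM in shNC. In fragments the median member had 356.5, 386 and 363.5 in the libraries labelled shNAT10 and 766, 712.5 and 828 in shNC. The members were short, with a median length of 660.5 nt (150 to 7195) as recovered from the FPKM values, against 2391 nt for the 200 most abundant protein-coding genes and 3901 nt for all 10517 genes tested. Over all genes tested the recovered lengths ran from 8 to 118976 nt. Each is the shortest length that made the values whole, so it is less sure for genes above 0 in few libraries. Fragments from a short gene count for more FPKM than the same number from a long one.

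Of the 200 names, 170 were those of a genomic clone with a number and told nothing of the gene opposite. A further 25 held the symbol of a coding gene, and 5 were other symbols: ABALON, HOXB-AS3, DM1-AS, HOXB-AS1 and UTAT33. Of the 200, 22 shared a clone name with another member, over 10 clones, and such neighbours may share fragments. HOXB-AS1 and HOXB-AS3 lie in the homeobox gene cluster HOXB, and HOXB-AS3 is known to encode a small peptide studied in colon cancer.

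The top of the ranking was held by RNAs named by clone. AC006064.4 was first, with 7899, 8074 and 5960 FPKM in the libraries labelled shNAT10, against 5277, 5572 and 5790 FPKM in shNC. Its lowest value labelled shNAT10 lay above its highest in shNC, by a narrow margin. AC018761.2 came second with 5086, 6478 and 6673 FPKM in the libraries labelled shNAT10 and 7557, 6902 and 5229 FPKM in shNC, and its groups overlapped. AC016888.1, ranked 3, averaged 5051 ± 585 FPKM in the libraries labelled shNAT10 and 3925 ± 109 FPKM in shNC (SD, n = 3 each), without overlap. AC092069.1 spanned 2990 to 6821 FPKM in the libraries labelled shNAT10 and 2452 to 4739 in shNC. The next were AC093484.4, AC130343.2, EZR-AS1, AC093503.2, AL662797.1 and AC011603.2, with means between 3503 and 4931 FPKM in the libraries labelled shNAT10 and between 2263 and 3942 FPKM in shNC. MIF-AS1, opposite the gene of the cytokine MIF, was 11th and the highest but for EZR-AS1 among those named for a coding gene. AC011446.2, AC096536.3, AC008750.4 and AC020909.3 closed the first 15. Within them AC096536.3 had 860 FPKM in shNAT10 replicate 1 and 2354 to 2916 in the other libraries.

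**Figure D1:**
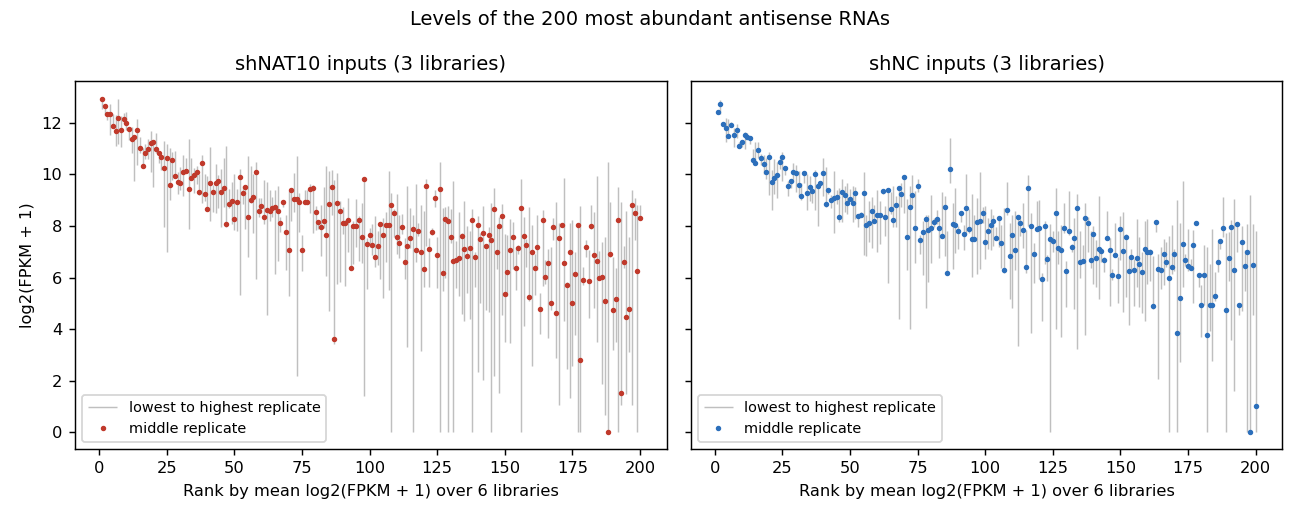
Level of each of the 200 antisense RNAs, as log2(FPKM + 1), against its rank, for the 3 shNAT10 inputs (left) and the 3 shNC inputs (right); points are the middle replicate and grey lines run from the lowest to the highest. The lines lengthen toward the low ranks, where some reach 0.

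The rank limit fell in a dense stretch. The last inside were AC084125.1, AP002770.1 and AC005841.1 at mean log2(FPKM + 1) of 5.71, 5.70 and 5.70, and the first outside were AL110504.1 and AL157871.4 at 5.68 and 5.67. Of the 200, 165 were also among the 200 of highest mean FPKM on the linear scale.

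Detection followed level. All 200 passed the filter used for the test, a mean FPKM of 1 or more. Since the rule asked for a high mean, counts of libraries above 0 are a description: 179 (89.5%) were above 0 in all 6 inputs, 19 in 5 and 2 in 4. Among all 1708 antisense RNAs above 0 somewhere the share above 0 in all 6 was 16.0%, over the next 200 ranks it was 34.5%, in the 200 most abundant lincRNAs 11.5%, and among all genes tested 22.6%. Each of these sets has a lower median level than the members. Within the level range of the members the share was 98.4% of 310 protein-coding genes and 92.3% of 13 lincRNAs. Members listed at 0 numbered 6, 5 and 3 in the libraries labelled shNAT10 and 6, 1 and 2 in shNC.

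The members with the most values at 0 were high elsewhere. AC078883.2 had 1451, 0 and 0 FPKM in the libraries labelled shNAT10 and 551, 192 and 244 FPKM in shNC. AC084125.1 had 176, 543 and 364 FPKM in the libraries labelled shNAT10 and 0, 583 and 0 FPKM in shNC. These are jumps between replicates of 1 hairpin, since fragments behind the nonzero values of AC084125.1 numbered 105, 349 and 187 in the libraries labelled shNAT10 and 821 in shNC replicate 2. AL670729.2 was listed at 0 in shNAT10 replicate 1 and at 449 and 627 FPKM in its other replicates, with 346 to 840 FPKM in shNC. AC087393.2 was listed at 0 in shNAT10 replicate 2 only, with 233 and 345 FPKM beside it and 258 to 1019 FPKM in shNC. A value of 0 at this depth does not show that the RNA is absent, and no duplicate marking separates PCR copies from molecules.

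Replicates differed widely for most members. Over all genes tested, correlations of log2(FPKM + 1) between libraries were 0.38 to 0.41 within groups and 0.37 to 0.40 between groups. Over the 200 they were 0.25 to 0.57 within groups and 0.32 to 0.49 between groups. Libraries of 1 hairpin were thus hardly more alike than libraries of different hairpins. The standard deviation between replicates, pooled over the groups on log2(FPKM + 1), had a median of 1.05 over the 200 and ran from 0.395 at the 10th percentile to 3.03 at the 90th. By blocks of 50 ranks its median was 0.525, 1.01, 1.57 and 2.09 from the most to the least abundant. The 310 protein-coding genes within the same range of levels had a median of 0.717, the 13 lincRNAs within it 1.33, and all genes tested 1.80. In 22 members the highest replicate was under 2-fold the lowest in both groups, 16 of them in the first 50 ranks. Taken by group, this held for 47 members in the libraries labelled shNAT10 and for 67 in shNC. In 80 members a group held a 0 or a span of 10-fold or more, 3 of them in the first 50 ranks and 36 in the last 50.

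The steadiest was AC016888.1, with 5194, 5551 and 4407 FPKM in the libraries labelled shNAT10 and 3810, 4027 and 3938 FPKM in shNC, a span of 1.26-fold in the libraries labelled shNAT10 and 1.06-fold in shNC. AL662797.1 spanned 1.28-fold in the libraries labelled shNAT10 and 1.16-fold in shNC. AC097460.1, at rank 81, was the steadiest below the top, with 283, 237 and 296 FPKM in the libraries labelled shNAT10 and 245, 285 and 317 FPKM in shNC. AC006064.4, AC018761.2 and AL592166.1 completed the 6 of lowest spread, with a pooled SD of at most 0.26. Among the 15 most abundant the pooled SD reached 0.71 for AC096536.3 and 0.67 for both AC008750.4 and EZR-AS1.

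**Figure D2:**
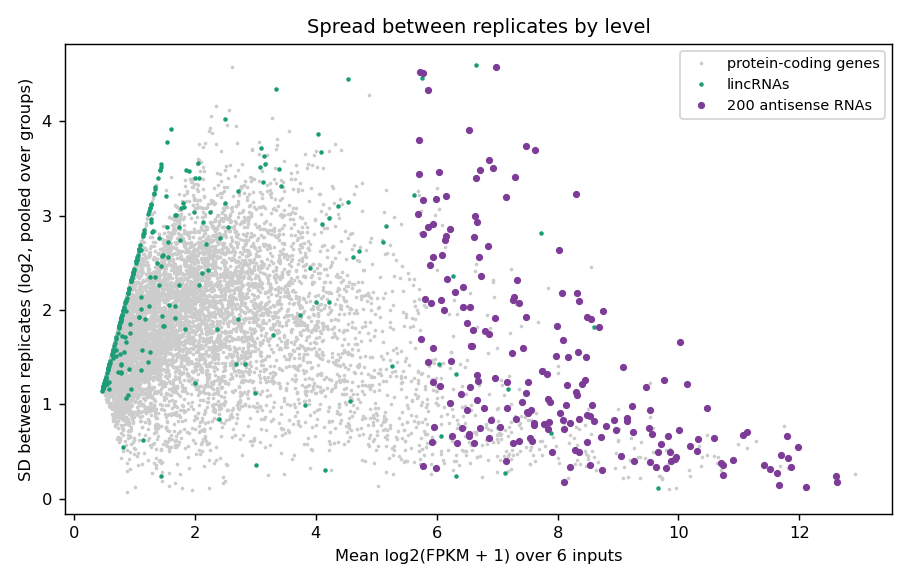
Standard deviation between replicates (log2 scale, pooled over both groups) against mean log2(FPKM + 1) over the 6 inputs, for the 200 antisense RNAs, protein-coding genes and lincRNAs tested. The 200 start at a level of 5.70 and their SD, with a median of 1.05, narrows toward the highest levels.

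For the comparison of hairpins, limma was fitted on log2(FPKM + 1) of the 10517 genes whose mean FPKM reached 1, and differences are shNAT10 minus shNC. Most of the 200 antisense RNAs differed little between hairpins beside their spread. The median difference was -0.05 (quartiles -0.74 and 0.81), against -0.49 over all genes tested, with 96 members above 0 and 104 below. In 122 (61.0%) the difference was under 1 in size, against 36.1% of all genes, and in 28 (14.0%) it was over 2, against 22.3%. These shares are not matched for level: the median of mean log2(FPKM + 1) was 7.59 over the members and 1.59 over all genes tested. At an adjusted p under 0.05 limma called 2 of 200, where it called 0.19% of all genes tested, 0.0856% as higher and 0.105% as lower. An unadjusted limma p under 0.05 was reached by 41 members (20.5%), 23 higher and 18 lower, against 3.70% of all genes. The fit gives abundant genes a smaller SE (0.21 for AC006064.4 and 1.34 for AC005841.1), and the members are abundant by choice. Without shNAT10 replicates 2 and 3, 0 members were called by limma and 42 had an unadjusted p under 0.05, and the median difference was 0.33, against -1.12 over all genes.

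AL078612.1, 150 nt long and the shortest member, was called lower. It had 9.59, 872 and 11.1 FPKM in the libraries labelled shNAT10, against 2725, 1200 and 819 FPKM in shNC. These rest on 2, 196 and 2 fragments in the libraries labelled shNAT10 and on 1383, 591 and 421 in shNC. Replicate 2 labelled shNAT10 lay within the range of shNC, so the groups overlap although the other 2 lay far below. The difference was -4.85 (SE 0.86, limma adjusted p = 0.000161), and -6.94 without replicate 2 labelled shNAT10 (limma adjusted p = 2.33e-09). Its pooled SD between replicates was 2.63. The SE is drawn mostly from genes of like level and is smaller than its own replicates would give. AL078612.1 did not pass limma without shNAT10 replicate 1 (adjusted p = 0.0641) or without shNC replicate 1, 2 or 3 (adjusted p = 0.779, 0.794 and 0.775). It also did not pass with a robust fit (limma adjusted p = 0.743) or by voom on fragments (adjusted p = 0.445). Without shNAT10 replicates 2 and 3 the difference was -7.04 (limma adjusted p = 0.108).

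AC005841.1, the last of the 200 by level, was called higher. It had 316, 298 and 451 FPKM in the libraries labelled shNAT10, against 225, 0 and 1.02 FPKM in shNC, with 126, 128 and 155 fragments in the libraries labelled shNAT10 and 218, 0 and 1 in shNC. Every shNC library lay below, and replicate 1 of shNC was close to the libraries labelled shNAT10. AC005841.1 reached the limit of the 200, set on a mean over both groups, only through the libraries labelled shNAT10. Its place among the 200 and its call thus rest on the same values. Its pooled SD between replicates was 3.01, so here too the SE is smaller than its own replicates would give. The difference of 5.51 (SE 1.34, limma adjusted p = 0.0418) did not pass limma without any 1 of the 6 libraries, where the adjusted p ran from 0.0581 without shNAT10 replicate 2 to 0.794 without shNC replicate 2. Without shNAT10 replicates 2 and 3 the difference was 5.36 (limma adjusted p = 0.699).

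The groups did not overlap for 30 members (15%), where this held for 9.61% of all genes tested and for 14.5% of the 310 protein-coding genes of the same level range. The libraries labelled shNAT10 lay above in 25 (12.5%, against 2.89% of all genes) and below in 5 (2.5%, against 6.72%). That split rests on the scaling: with each library scaled to the same sum (TPM) it was 17 above and 13 below, and after quantile normalization 18 above and 15 below. In the protein-coding genes of the same levels it was 31 above and 14 below as deposited, and 14 above and 26 below on the TPM scale. Replicate 1 labelled shNAT10 alone lay outside the range of the shNC libraries for 127 members, where this held for 41.6% of all genes tested. It lay above in 70, against 21.7% of all genes, and below in 57, against 19.9%.

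Among the 25 that lay above, B4GALT1-AS1 had 1160, 340 and 728 FPKM in the libraries labelled shNAT10, against 72.2, 71.9 and 221 FPKM in shNC. It is named for B4GALT1, a galactosyltransferase of the Golgi, and its difference of 2.64 (SE 0.80) had a limma adjusted p of 0.264. AC009902.2 averaged 601 ± 399 FPKM in the libraries labelled shNAT10 and 50.1 ± 27.5 FPKM in shNC (SD, n = 3 each). SLCO4A1-AS1, an RNA studied in colorectal cancer, had 449, 234 and 257 FPKM in the libraries labelled shNAT10, against 0, 12.7 and 144 FPKM in shNC. Its groups stood apart, with the widest spread in shNC. AC005775.1 had 429, 550 and 681 FPKM in the libraries labelled shNAT10, against 180, 266 and 0 FPKM in shNC. AC009133.1, at rank 180, had 173, 145 and 111 FPKM in the libraries labelled shNAT10, against 51.7, 29.5 and 11.8 FPKM in shNC. Limma adjusted p-values of these 4 lay between 0.102 and 0.754. Of the 15 most abundant, AL662797.1 had the lowest limma adjusted p, with 4523, 4122 and 5291 FPKM in the libraries labelled shNAT10, against 2127, 2197 and 2466 FPKM in shNC. The difference of 1.03 (SE 0.29, 95% interval 0.46 to 1.60) had a limma adjusted p of 0.146 and did not pass. It passed with a pseudocount of 0.1 (limma adjusted p = 0.0373) and by voom on fragments (adjusted p = 0.001), and was 1.00 without shNAT10 replicates 2 and 3 (limma adjusted p = 0.12). AL133346.1, at rank 21, had 2028, 1843 and 3132 FPKM in the libraries labelled shNAT10, against 390, 1140 and 825 FPKM in shNC. Its difference of 1.66 had a limma adjusted p of 0.087, which was 0.0211 with a pseudocount of 0.1, 0.0494 with a robust fit and 0.699 without shNAT10 replicates 2 and 3. AC009902.2 and SLCO4A1-AS1 passed with a robust limma fit (adjusted p = 0.0447 and 0.037), and AC005775.1 with a pseudocount of 0.1 (limma adjusted p = 0.0211). AC011603.2, at rank 10, had a limma adjusted p of 0.651 and passed by voom on fragments only (difference 0.76, adjusted p = 1.00e-23).

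The 5 that lay below were few enough to be given in full. HOXB-AS1 had 12.9, 26.1 and 41.2 FPKM in the libraries labelled shNAT10, against 281, 215 and 282 FPKM in shNC, a difference of -3.36 (SE 1.16, limma adjusted p = 0.615). It was -4.21 without shNAT10 replicates 2 and 3 (limma adjusted p = 0.108). HOXB-AS3 of the same cluster had 147, 89.7 and 220 FPKM in the libraries labelled shNAT10 and 290, 147 and 339 FPKM in shNC, and its groups overlapped. For HOXB-AS1 the gap was wide against the spread, yet the test draws its SE from genes of like level. AC092140.1 had 76.0, 199 and 132 FPKM in the libraries labelled shNAT10, against 640, 910 and 760 FPKM in shNC. Its difference was -2.58 (SE 0.76, limma adjusted p = 0.196), and it passed limma without shNAT10 replicate 2 (adjusted p = 0.0444) and after quantile normalization (adjusted p = 0.0487). AC009902.2, above, also passed limma without that library (adjusted p = 0.0168). AC006441.3 had a mean of 214 FPKM in the libraries labelled shNAT10 and 611 in shNC. AP006621.1 stood at 128 FPKM in the libraries labelled shNAT10 and 354 in shNC, and AL590133.2 at 114 FPKM in the libraries labelled shNAT10 and 263 in shNC.

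**Figure D3:**
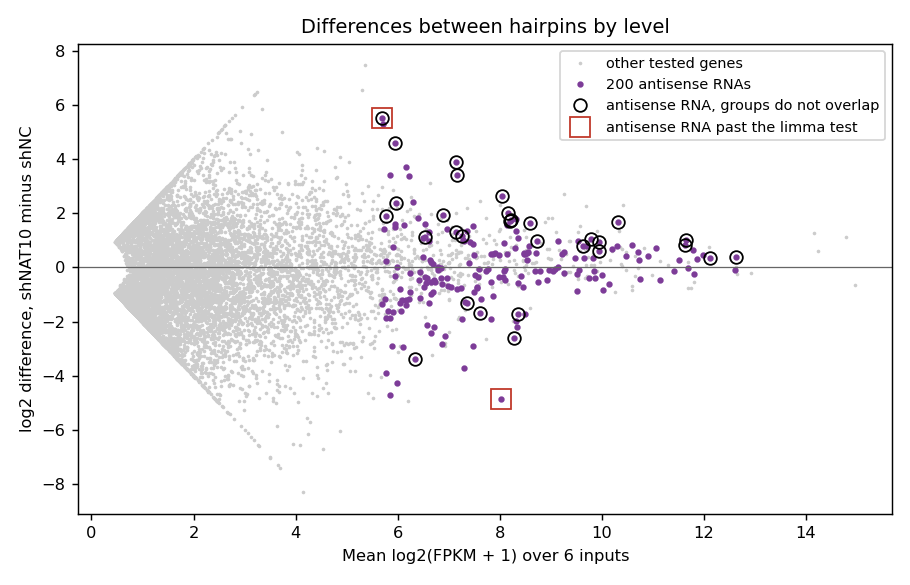
Log2 difference, shNAT10 minus shNC, against mean log2(FPKM + 1) over the 6 inputs, for the 200 antisense RNAs and all other genes tested; circles mark the 30 members whose groups do not overlap and squares the 2 past the limma test. Most members lie within 1 of no difference, and the widest differences are at the low end of their range.

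**Figure D4:**
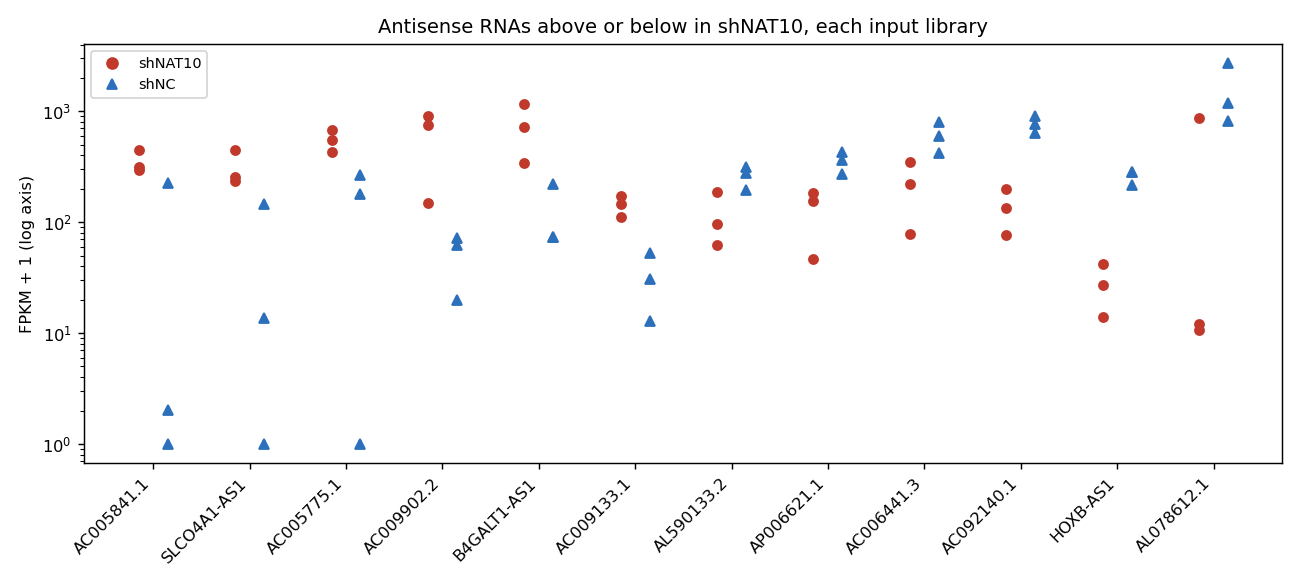
FPKM + 1 on a log axis in each input library for members whose groups do not overlap, the 6 with the largest difference above and all 5 below, and for AL078612.1, with the 3 shNAT10 libraries left of the 3 shNC libraries. Points at 1 are values listed at 0, and AL078612.1 is the only one shown whose groups overlap.

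The antisense RNAs named for a coding gene stood far above that gene in FPKM. In all 25 pairs the mean level of the antisense RNA was above that of the partner, in 22 pairs it was above in each of the 6 libraries, and in 147 of 150 library values. The median of the mean FPKM was 231 for the 25 antisense RNAs and 17.2 for their partners, and the median ratio of antisense RNA over partner was 25.2. The choice of abundant antisense RNAs favours such a ratio. Over all 973 other named pairs, the antisense RNA was higher in 206 and the coding gene in 488. Of the 344 among them with an antisense RNA above 0, the antisense RNA was higher in 206 and the coding gene in 138. That last filter asks nothing of the coding gene, so it favours the antisense RNA too. Partners were listed at 0 in at least 1 library in 7 pairs (16 values), and the antisense RNAs in 2 values.

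EZR-AS1 had 7717, 2338 and 4740 FPKM in the libraries labelled shNAT10 and 3604, 2953 and 2158 FPKM in shNC. EZR itself, the gene of ezrin, which ties the membrane to the actin cortex, had 160, 75.5 and 202 FPKM in the libraries labelled shNAT10 and 145, 53.2 and 114 FPKM in shNC. The pair thus differed by a ratio of 31.3 between mean FPKM values. MIF-AS1 had 3495, 3674 and 2567 FPKM in the libraries labelled shNAT10 and 2016, 3194 and 2984 FPKM in shNC, while MIF had 27.3, 80.6 and 39.1 FPKM in the libraries labelled shNAT10 and 28.5, 14.8 and 38.4 FPKM in shNC. The ratio was 78.4, and both genes' groups overlapped. TMPO-AS1, opposite the gene of the lamina-associated polypeptide TMPO, had 502 to 1034 FPKM in the libraries labelled shNAT10 and 764 to 821 FPKM in shNC, against 5.39 to 68.3 FPKM for TMPO over all 6. Its ratio was 16.6.

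Further down the same order held for partners of many kinds. RAB11B, a small GTPase of recycling endosomes, was listed at 0 in shNAT10 replicate 1 and shNC replicate 1, where RAB11B-AS1 had 812 and 460 FPKM. RPS6KB2-AS1 had 427 to 518 FPKM in the libraries labelled shNAT10 and 20.1 to 757 FPKM in shNC, against 0.254 to 11.3 FPKM for RPS6KB2, a kinase of ribosomal protein S6. SMARCA5-AS1 had 463, 481 and 672 FPKM in the libraries labelled shNAT10, against 218, 290 and 67.6 FPKM in shNC, without overlap. SMARCA5, the ATPase of chromatin remodellers of the ISWI class, had 37.6, 6.61 and 0.0996 FPKM in the libraries labelled shNAT10 and 3.88, 20.8 and 34.2 FPKM in shNC. Its groups overlapped and spread over far more than those of its antisense RNA. For PXN-AS1, opposite the focal adhesion protein gene PXN, the ratio was 28.3. It was 18.3 for DCTN1-AS1, opposite a dynactin subunit gene, 25.5 for NUCB1-AS1, opposite the gene of a calcium-binding Golgi protein, and 25.9 for PTOV1-AS2. For B4GALT1-AS1 it was 44.6. The lowest ratio was 1.48 for NOP14-AS1, at 7195 nt the longest member. The highest was 7610 for SLCO4A1-AS1, whose partner, an organic anion transporter gene, was listed at 0 in 5 libraries and at 0.144 FPKM in shNC replicate 3, so that ratio has little behind it.

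**Figure D5:**
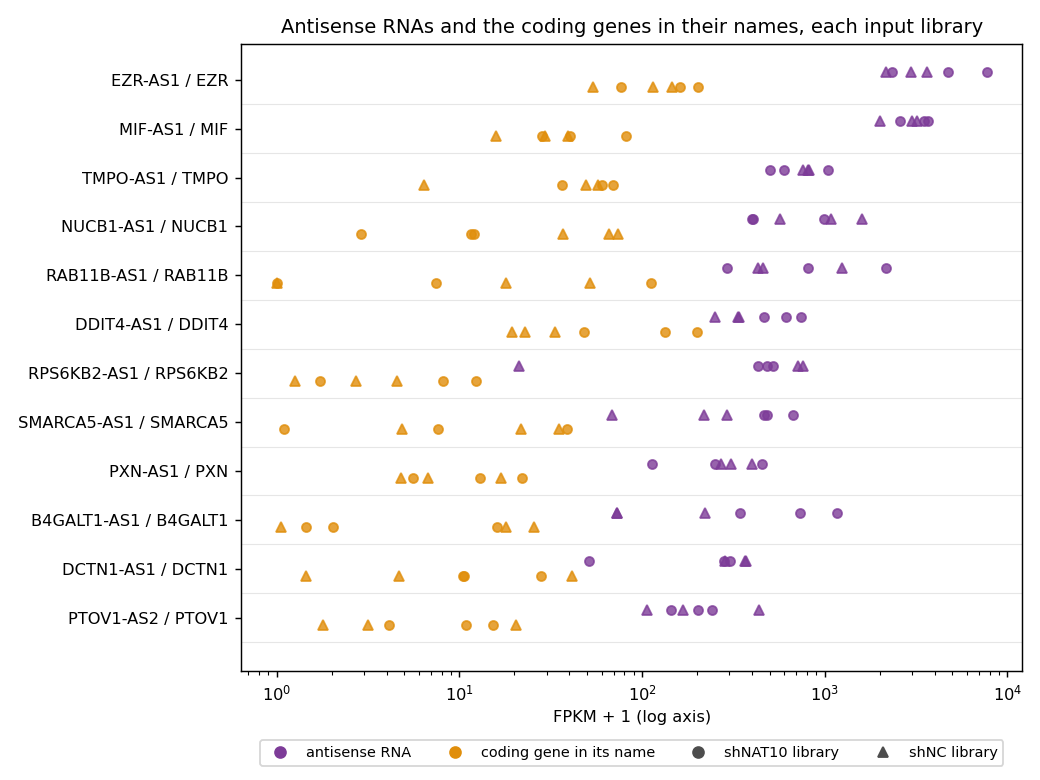
FPKM + 1 on a log axis in each input library for the 12 most abundant antisense RNAs named for a coding gene and for that gene; circles are shNAT10 libraries and triangles shNC libraries. In each of the 12 pairs the antisense RNA lies above its partner within every library.

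Levels of genes outside the 200 are given beside these. MT-ND6, the sole mitochondrial mRNA transcribed from the light strand, had the highest mean level of the 13 mitochondrial mRNAs, with 6389, 6222 and 9421 FPKM in the libraries labelled shNAT10 and 7946, 9429 and 7634 FPKM in shNC. GAPDH, a glycolytic enzyme used as a reference, had 886, 834 and 437 FPKM in the libraries labelled shNAT10 and 454, 510 and 531 FPKM in shNC, below the first 10 antisense RNAs by mean level. Whether fragments of the coding genes were counted to the RNAs opposite them was not tested.

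DDIT4-AS1 and DDIT4 were the pair in which both genes differed without overlap. DDIT4-AS1 had 462, 613 and 744 FPKM in the libraries labelled shNAT10, against 334, 339 and 248 FPKM in shNC. DDIT4, an inhibitor of the growth kinase mTORC1 that is induced by stress, had 199, 47.3 and 133 FPKM in the libraries labelled shNAT10, against 18.4, 32.2 and 21.8 FPKM in shNC. Both lay above in the libraries labelled shNAT10, by 0.97 (SE 0.67) for DDIT4-AS1 and 2.15 (SE 1.31) for DDIT4, and neither passed limma (adjusted p = 0.754 each). Without shNAT10 replicates 2 and 3 the difference of DDIT4-AS1 was 0.60 (limma adjusted p = 0.699). Their RefSeq starts lie 213 nt apart on opposite strands, and the genes run away from each other, as the shared start window above shows. Of 10 pairs with a RefSeq start for both genes, all 10 were on opposite strands, and this was the 1 pair with that divergent layout. In the other 9 the coding start lay downstream of the antisense start. Starts lay within 500 nt in 5 pairs, at 256 nt for EZR, 331 nt for RAB11B, 347 nt for UXT and 369 nt for NDUFB2 beside DDIT4. Over the 25 pairs, groups did not overlap for 6 antisense RNAs and 4 partners, and limma called 0 of the 25 antisense RNAs and 0 of the 24 partners tested. Of all genes tested, groups did not overlap for 9.61%, and limma called 0.19%. The other partners without overlap were NUCB1, CD81 and PITRM1.

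Peaks of differential ac4C signal were assigned to 22 of the 200 members (11%), with 24 peaks in the authors' deposited table. By the same table, 41 of all 5517 antisense RNAs (0.743%), 7 of the next 200 in rank (3.50%) and 5 of the 200 most abundant lincRNAs (2.5%) had a peak. Of the 310 protein-coding genes of the members' level range, 89 (28.7%) had a peak there. By blocks of 50 ranks the members with a peak in the authors' deposited table numbered 9, 6, 3 and 4. These lists differ in level and length, so the shares are a description.

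Each of the 24 peaks was classed as exon in the authors' deposited table, 18 were of a single block, and 13 (54.2%) held at least 1 site of the motif the authors counted, against 62.6% of the 2364 peaks listed. The log2 fold change of the authors' deposited table was negative for 17 (70.8%) and positive for 7, against 61.7% negative over all peaks, and which hairpin stood in the numerator was not stated. Peak folds ran from 1.74 to 168 with a median of 6.31 in the authors' deposited table, against a median of 10.5 over all its peaks. All 24 overlapped a coding gene of RefSeq, and for 20 the coding gene is known to lie on the strand opposite the peak.

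The peak of largest fold was in AC024267.6 at chr17:28898296-28898472 (GRCh38, plus strand), with a fold of 168 and a log2 fold change of -4.03 in the authors' deposited table, within DHRS13 on the other strand. AC024267.6 had 297, 333 and 98.4 FPKM in the libraries labelled shNAT10 and 172, 181 and 347 FPKM in shNC. The input groups of AC024267.6 overlapped. AC097382.2 followed with a fold of 143 and a log2 fold change of 14.1 in the authors' deposited table, at chr4:7030644-7030823 (minus strand) within TBC1D14, a regulator of autophagy. AC023509.2 had 2 peaks opposite the transcription factor gene ATF7, with folds of 130 and 8.21 and log2 fold changes of 6.19 and -3.90 in the authors' deposited table. These run in opposite directions at chr12:53515789-53515968 and chr12:53516028-53516177 (plus strand), a short way apart.

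Other peaked members faced genes of well known proteins. AP003392.3 lay opposite HYOU1, a chaperone of the endoplasmic reticulum, with a fold of 28.5 in the authors' deposited table. AC010226.1 lay opposite TMED7, a cargo receptor of the secretory pathway, with a fold of 23.4, and AC073333.1 opposite BZW2, with a fold of 16.8, both in the authors' deposited table. AC011611.3 had 7 motif sites in its peak at chr12:76031019-76031318 (plus strand), the most among the 24, with a fold of 12.6 in the authors' deposited table. It had 410, 461 and 690 FPKM in the libraries labelled shNAT10 and 376, 755 and 588 FPKM in shNC, while PHLDA1 opposite was listed at 0 in 4 libraries and reached 3.72 FPKM in shNAT10 replicate 2. AC005726.3, opposite BLTP2, had a fold of 12 and a log2 fold change of -3.46 in the authors' deposited table. The peak of MIF-AS1 at chr22:23894809-23894987 (minus strand) had a fold of 8.67 and a log2 fold change of 8.07 in the authors' deposited table, with 2 motif sites. AC037459.3, over CCAR2, an inhibitor of the deacetylase SIRT1, closed the first 10 with a fold of 6.64 in the authors' deposited table.

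Peaks were also listed for SMARCA5-AS1, SLCO4A1-AS1 and DDIT4-AS1 of the pairs above. That of SMARCA5-AS1 at chr4:143513737-143513915 (minus strand) had a log2 fold change of -6.05 and 3 motif sites in the authors' deposited table, and reached 15 bases into the SMARCA5 start window printed above. SLCO4A1-AS1 had a log2 fold change of -5.41 in the authors' deposited table at chr20:62664986-62665133 (minus strand). The peak listed for DDIT4-AS1, at chr10:72275382-72275805 (minus strand), had a log2 fold change of -5.41 in the authors' deposited table. It lies outside DDIT4-AS1 as RefSeq places it (chr10:72271386-72273711) and within DDIT4. SMARCA5-AS1, SLCO4A1-AS1 and DDIT4-AS1 each lay above in the inputs labelled shNAT10 without overlap, and none passed limma.

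The peaks of 18 more members overlapped a coding gene that their names do not give. In 15 of these 18 the antisense RNA was above the coding gene in all 6 inputs, and in 5 of 6 for AC010226.1, AC073333.1 and AC037459.3. As for the named pairs, the choice of abundant antisense RNAs favours this order. ABALON, known as an antisense RNA of BCL2L1, the gene of an inhibitor of apoptosis, had 1193, 249 and 635 FPKM in the libraries labelled shNAT10 and 564, 674 and 464 FPKM in shNC. BCL2L1 had 55.4, 76.9 and 17.6 FPKM in the libraries labelled shNAT10 and 16.1, 2.39 and 42.5 FPKM in shNC, a ratio of 17.9. AC099314.1, at rank 16, had 1241 to 2064 FPKM in the libraries labelled shNAT10 and 1609 to 2432 FPKM in shNC. The gene over its peak was CDH1, which encodes the epithelial adhesion protein E-cadherin and had 50.8 to 78.6 FPKM in the libraries labelled shNAT10 and 24.5 to 70.7 FPKM in shNC. The nearest to its coding gene was AL354733.3, at a ratio of 4.68 over HNRNPK, an RNA-binding protein gene with 92.0, 132 and 129 FPKM in the libraries labelled shNAT10 and 122, 152 and 75.4 FPKM in shNC. AP000781.1, over SSRP1, a subunit of the histone chaperone FACT, had 127, 2305 and 1605 FPKM in the libraries labelled shNAT10 and 867, 1660 and 1867 FPKM in shNC. There 1 replicate labelled shNAT10 stood far below the other 5 libraries.

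Of the antisense RNAs in a list of much studied ones, 3 were among the 200: TMPO-AS1 at rank 39, PXN-AS1 at rank 82 and HOXB-AS3 at rank 103. TMPO-AS1 averaged 711 ± 284 FPKM in the libraries labelled shNAT10 and 797 ± 30.0 FPKM in shNC (SD, n = 3 each). PXN-AS1, an RNA studied in liver cancer, averaged 271 ± 170 FPKM in the libraries labelled shNAT10 and 325 ± 65.7 FPKM in shNC (SD, n = 3 each). All 3 had overlapping groups and limma adjusted p-values from 0.754 to 0.894.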

How the data were processed

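Per the labels, DLD1 RNA was sequenced as 150 bp pairs. The authors deposited gene levels in FPKM and a table of differential peaks that gives, per the file headers, a fold enrichment (a ratio), a log2 fold change from a differential test, log10 values of its FDR and of the peak p-value (read here as scores), and a count of sites of a cytidine motif. The submitters' processing notes name cutadapt 2.5, HISAT2 2.1.0 and HOMER 4.10.4 and both a human and a mouse build. Counting tool, annotation, strand setting, peak caller and pooling are not named in these sources. Coordinates were read as GRCh38, since 2154 of 2190 peaks (98.4%) lay within the RefSeq gene of their symbol.

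Columns with NC matched the shNC inputs by title, and those with sh were taken as shNAT10 inputs because no other input was left. Whole fragments and gene lengths were recovered from the FPKM values: all 15014 genes above 0 came out whole within a tolerance of 1e-06, a weak check since each length was sought for it, and 13 of 13 mitochondrial mRNAs had their RefSeq length. The FPKM denominators were 1389633, 1498313 and 1197889 fragments in the libraries labelled shNAT10 and 3383204, 3284599 and 3426872 in shNC. The 2399 genes above 0 in all 6 libraries had the same median ratio to their mean in every library (1.14), so the deposited values already carried such a scaling. PCR copies were not marked.

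Levels were tested with limma 3.58.1 (lmFit, eBayes with trend) in R 4.3.3 on log2(FPKM + 1), which understates the change of low genes, on genes whose mean FPKM reached 1, with Benjamini-Hochberg adjustment over all of them and a threshold of 0.05. The prior had 212.6 degrees of freedom, so each SE is mostly that of genes of like level. The members, gene lists and tests were chosen with earlier results of these data known. Named genes were the 15 most abundant members, those past limma, up to 6 per direction with the largest difference among those without overlap, the 10 of largest peak fold, the 12 most abundant with a partner by name, the 6 steadiest, the 4 above 0 in the fewest libraries, 3 on either side of the limit (1 of them is not reported here), a list of studied antisense RNAs, and NAT10. AL133346.1, UXT, NDUFB2, NOP14, CD81, PITRM1, HNRNPK, CDH1, BCL2L1, SSRP1 and their antisense RNAs, and GAPDH and MT-ND6, were named after their values were seen. The labels do not say whether replicate numbers pair libraries across the groups, and the main fit used no pairing. Same-numbered libraries had correlations of deviations from the group means, across genes, of 0.00, -0.02 and 0.01. With replicates that differ this widely, such values cannot exclude a pairing. Alternatives changed the pseudocount, filter, scaling, eBayes, unit, ranking, replicate block and libraries.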

Additional observations from a re-analysis of the deposited data

How the results depend on the processing

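The counts of members above 0 in all 6 inputs (178 at an FPKM of at least 1, 146 under the linear ranking), of pairs with the antisense RNA above (25) and of members with a peak (22 when matched by symbol) stayed within 1.5 times of those reported. The count past limma, 2 as reported, was 8 with a pseudocount of 0.1, 0 without the filter (28 members had an unadjusted p under 0.05), 1 with a mean FPKM of at least 5, 1 by median ratio scaling, 4 on the TPM scale, 5 when quantile normalized, 5 with robust eBayes, 5 for the 200 of highest mean FPKM on the linear scale and 2 by voom. With the replicate block it was 3. Median ratio scaling divided every library by the same factor (1.14). It thus moved values only against the pseudocount and the filter, and not between libraries. Leaving out 1 library gave 0 to 8, with 0 without each of the 3 shNC replicates (18 to 20 members then had an unadjusted p under 0.05), 1 without shNAT10 replicate 1 and 8 without shNAT10 replicate 2. Without shNAT10 replicates 2 and 3 together, an alternative chosen after seeing the data in which the lone shNAT10 library is assumed to vary like the shNC ones, it was 0. With shNAT10 replicate 1 alone against the range of shNC, 127 members lay outside in place of 30 without overlap, as 1 library meets that condition more easily than 3. The call of AL078612.1 held in 8 of 16 alternatives and that of AC005841.1 in 5 of 16. Not called as reported were AC084125.1 (difference 5.29, limma adjusted p = 0.0678) and AC087393.2 (-3.73, limma adjusted p = 0.126), which passed in 4 alternatives each. AC078883.2 (-4.71, limma adjusted p = 0.174) passed in 3. Each of these members held a value at 0, and its groups overlapped. The median difference, -0.05 as reported, was -0.33 on the TPM scale and -0.33 after quantile normalization, 0.33 without shNAT10 replicates 2 and 3, and -0.046 to 0.16 with 1 library left out. The scalings moved the median of all genes from -0.49 to -0.76 (TPM) and -0.08 (quantile), and the pseudocount of 0.1 moved it to -0.78. AC016888.1, 0.36 as reported, was -0.061 after quantile normalization; the cause was not tested. With 3 libraries a hairpin and unequal depth, differences of low members are not resolved.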
